A study of Homo sapiens with 8 samples.

Results

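CYP1B1, the cytochrome P450 (P450) genes of taxane metabolism and the genes of the aryl hydrocarbon receptor (AHR) pathway were followed through the open chromatin of A2780 cells, an established human ovarian cancer line. ATAC-seq reads DNA that the transposase Tn5 can reach, and the deposited matrix gives each peak in CPM, a read count scaled to the total of reads in peaks of its library. The cells were cisplatin-resistant, paclitaxel-resistant and dual-resistant (both drugs) derivatives and control A2780 cells, with 2 libraries in each of the 4 groups; nothing in the labels says that these came from separate cultures, so p-values measure only the spread between libraries, which may be technical. Every library is labelled wild type; the treatment label is cisplatin, paclitaxel, both or none, and the sources used here do not say whether drug was present at harvest, how resistance was selected or whether a line is 1 clone. The members were all peaks overlapping the RefSeq span of CYP1B1, CYP1A1, CYP1A2, CYP2C8, CYP3A4, CYP3A5, AHR, AHRR, ARNT or TIPARP, extended by 1 kb on both sides. This gave 38 of the 159451 peaks, and all 38 passed the filter on low values. AHRR held 15 of them, ARNT 8, CYP1B1 5, TIPARP 4, CYP1A1 and AHR 2 each, and CYP1A2 and CYP3A5 1 each. CYP2C8 and CYP3A4 had none.

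AHR is a transcription factor that waits in the cytoplasm with the chaperone HSP90, moves to the nucleus when it binds dioxins, polycyclic hydrocarbons or tryptophan metabolites, and pairs with ARNT. The pair binds a short DNA element and induces CYP1A1, CYP1A2, CYP1B1, AHRR and TIPARP, of which AHRR and TIPARP damp AHR activity in return. CYP1B1 is a mainly extrahepatic member of the CYP1 family: it oxidises polycyclic hydrocarbons and estradiol, is abundant in many tumours including ovarian ones, and has been linked to taxane response in cultured cells. CYP2C8 and CYP3A4 are the main paclitaxel-oxidising enzymes of the liver, and CYP3A5 is a close relative of CYP3A4.

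The letters at the starts of the pathway genes show what the peaks below cover. The first annotated starts of AHR, AHRR, CYP1A1 and TIPARP are printed because each lies under a peak described here and each holds GCGTG, the core of the AHR-ARNT element, on one strand or the other. The regions run 300 bases 5′ to 3′ on the gene's own strand, from 250 before to 50 after the start, and are taken from RefSeq (GRCh38.p14). Capitals mark GCGTG, its reverse complement CACGC, or, in AHRR, the whole element TNGCGTG.
AHR, chr7:17298402-17298701, plus strand: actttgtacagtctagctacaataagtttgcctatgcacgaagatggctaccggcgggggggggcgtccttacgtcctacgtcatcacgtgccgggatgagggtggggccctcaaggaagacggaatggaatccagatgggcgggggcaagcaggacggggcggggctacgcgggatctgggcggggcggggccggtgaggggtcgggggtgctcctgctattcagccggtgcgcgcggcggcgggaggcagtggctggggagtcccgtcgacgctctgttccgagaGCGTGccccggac
AHRR, chr5:321464-321763, plus strand: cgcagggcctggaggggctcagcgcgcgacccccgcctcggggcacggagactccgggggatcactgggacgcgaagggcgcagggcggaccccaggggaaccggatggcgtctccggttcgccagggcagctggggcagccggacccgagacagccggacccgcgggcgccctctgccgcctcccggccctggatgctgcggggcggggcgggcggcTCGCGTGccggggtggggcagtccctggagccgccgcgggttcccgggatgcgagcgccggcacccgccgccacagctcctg
CYP1A1, chr15:74725479-74725778, minus strand: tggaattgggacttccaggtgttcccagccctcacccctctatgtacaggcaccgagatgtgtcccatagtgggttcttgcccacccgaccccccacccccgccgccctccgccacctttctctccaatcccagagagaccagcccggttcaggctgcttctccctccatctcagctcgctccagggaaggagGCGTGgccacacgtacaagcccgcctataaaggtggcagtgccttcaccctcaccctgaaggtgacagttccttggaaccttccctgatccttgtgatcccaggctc
TIPARP, chr3:156674340-156674639, plus strand: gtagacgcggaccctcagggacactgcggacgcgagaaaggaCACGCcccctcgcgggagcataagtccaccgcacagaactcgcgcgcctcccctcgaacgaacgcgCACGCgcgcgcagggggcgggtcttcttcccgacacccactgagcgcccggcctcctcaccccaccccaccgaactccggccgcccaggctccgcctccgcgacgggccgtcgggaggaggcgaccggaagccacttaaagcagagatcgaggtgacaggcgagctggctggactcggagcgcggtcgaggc
TNGCGTG was found at AHRR alone, as TCGCGTG from position -32 relative to the start, among the 12 start regions of 9 member genes in the RefSeq table; over all 35116 start regions of that length its share was 5.51%. GCGTG, which also lies inside TNGCGTG, began at position 38 in AHR and -57 in CYP1A1, and 36.5% of all start regions held it. The GC box GGGCGG was present 4 times each at AHR and AHRR, 2 times at TIPARP and once at CYP1A1, against a share of 45.0% of all start regions with at least 1. Both strands were searched. The GC content was 67.3% at AHR, 79.3% at AHRR, 61% at CYP1A1 and 71% at TIPARP, with a median of 58.7% over all start regions. A match is only a run of letters, and the absence of one says nothing about binding.

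All peaks have the same width of 1001 bp, so their CPM can be compared between genes. Averaged over the 8 libraries, the peak at the start or gene end stood at 74.9 CPM for ARNT, 64.2 CPM for TIPARP, 33.6 CPM for CYP1B1, 14.1 CPM for CYP1A1, 8.67 CPM for AHRR, 4.0 CPM for AHR and 2.10 CPM for CYP3A5. The median of such peaks over 16269 protein-coding genes was 19.6 CPM, with quartiles of 6.79 and 38.2 CPM. ARNT exceeded 95.4% of genes, CYP1B1 69.6%, AHR 15.6% and CYP3A5 5.01%. The 26 member peaks inside gene spans were weaker, with a median of 2.31 CPM against 2.76 CPM over all tested peaks. A level in these bulk libraries cannot tell fewer cells with an open site apart from less opening per cell.

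**Figure D1:**
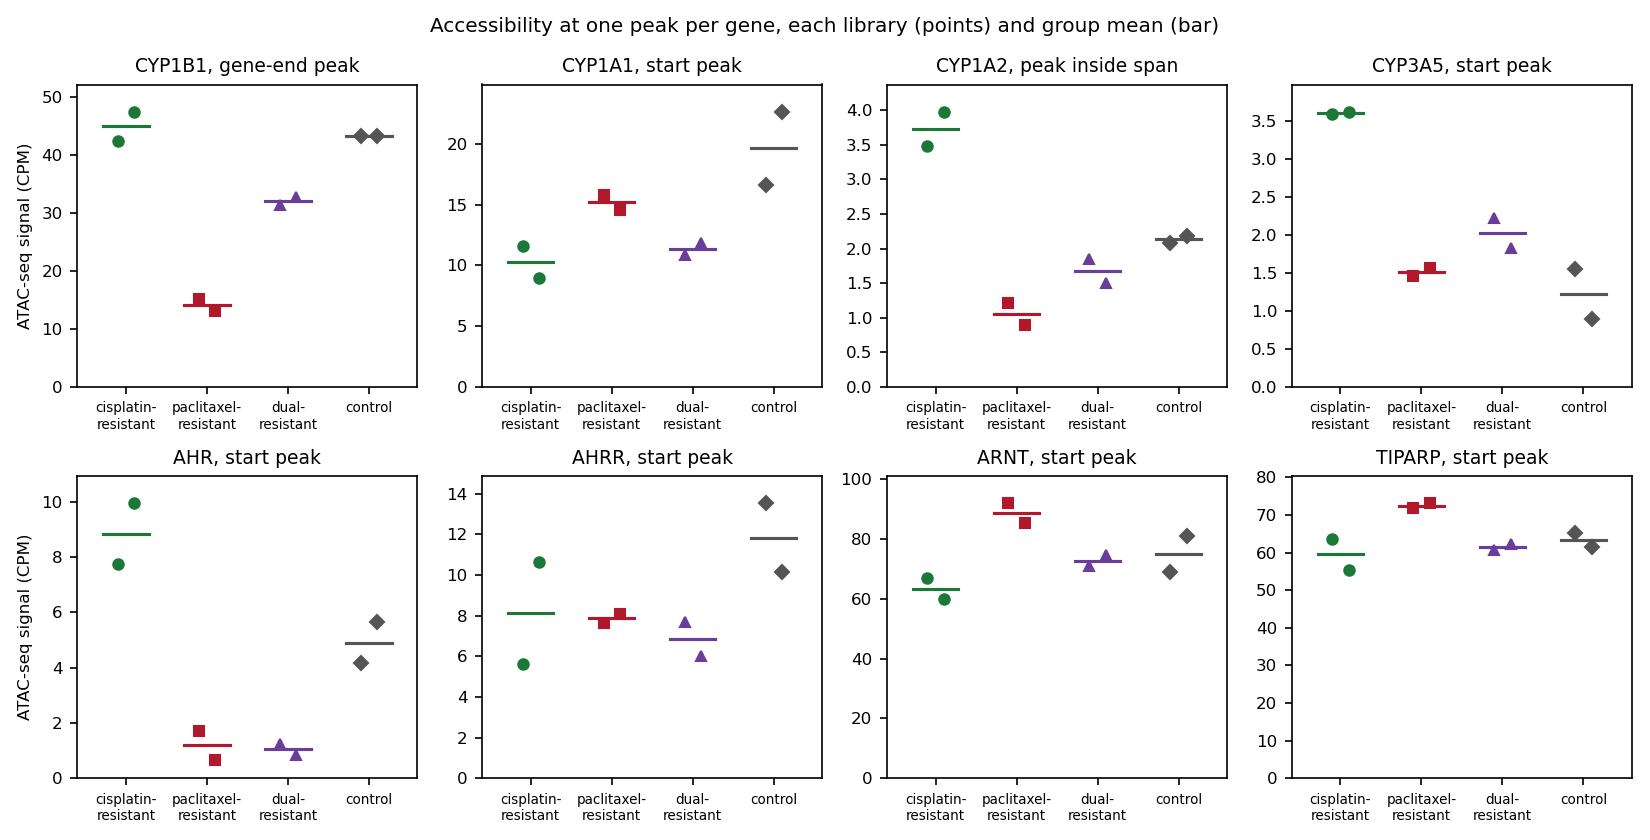
ATAC-seq signal in CPM at one peak for each of the 8 genes with peaks; points are libraries, bars are means of the 2 libraries of a group, and each vertical axis starts at 0. CYP1B1 was lowest in the paclitaxel-resistant libraries (15.2 and 13.0 CPM), and the 4 paclitaxel- and dual-resistant libraries lay between 0.674 and 1.70 CPM at AHR.

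The main difference in the set was at CYP1B1, whose accessibility was lower in paclitaxel-resistant cells at the gene-end peak (chr2:38076127-38077127), the peak over the upper end of the span (chr2:38067509-38076151). No annotated start of CYP1B1 was available here. The name gene-end peak therefore does not say which end is the start, and this peak may lie at it. The gene-end peak had 42.4 and 47.4 CPM in cisplatin-resistant, 15.2 and 13.0 CPM in paclitaxel-resistant and 31.4 and 32.7 CPM in dual-resistant libraries, against 43.3 and 43.2 CPM in control libraries. Both paclitaxel-resistant libraries lay below all others, both dual-resistant libraries lay between them and the rest, and cisplatin-resistant and control libraries overlapped. The log2 difference from control, on the log2(CPM + 0.5) scale, was -1.59 in paclitaxel-resistant cells (SE 0.13, limma, Benjamini-Hochberg adjusted p = 4.54e-20). In dual-resistant cells it was -0.43 (SE 0.13, adjusted p = 0.0119), and this call was lost with quantile scaling (-0.30) and without dual-resistant library 1 (-0.40) or either control library (-0.43 each). Cisplatin-resistant cells differed by 0.05 (95% interval -0.20 to 0.30, adjusted p = 0.800).

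Set against each other, dual-resistant cells had more signal at the CYP1B1 gene end than paclitaxel-resistant cells (log2 difference 1.16, adjusted p = 7.05e-13) and less than cisplatin-resistant cells (-0.48, adjusted p = 0.00123). From low to high the order of levels was paclitaxel-resistant, dual-resistant, and then control and cisplatin-resistant, whose difference was within the spread. The dual-resistant value also lay above what adding both single-line differences to control would give, by 1.11 (SE 0.18, adjusted p = 4.23e-07; the interaction term of the limma model). In the fixed 5 Mb interval of the chromosome that holds the gene, 331 peaks were tested. Their median relative to control was 0.37 for cisplatin, 0.04 for paclitaxel and 0.10 for dual resistance. The paclitaxel difference was therefore not shared by the median of that interval. With the regional median subtracted, the cisplatin difference was -0.32 (adjusted p = 0.0489).

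The other CYP1B1 peaks were weaker, and they are named here after their values were seen. A peak inside the span, nearest to the gene-end peak (chr2:38073735-38074735) had 3.15 and 1.99 CPM in cisplatin-resistant, 0.243 and 0 CPM in paclitaxel-resistant and 3.21 and 4.19 CPM in dual-resistant libraries, against 3.38 and 3.6 CPM in control libraries. The paclitaxel-resistant libraries held only 2 and 0 reads there, below every other library, and 0 reads allow a level of up to 0.337 CPM. Its fitted log2 difference in paclitaxel-resistant cells was -2.71 (adjusted p = 9.38e-08), a value that depends on the pseudocount and ranged from -4.59 to -1.37 over 18 alternative settings. The peak at chr2:38070633-38071633 averaged 1.35 ± 0.321 CPM in paclitaxel-resistant cells, against 4.92 ± 1.13 CPM in control cells (SD, n = 2 each; -1.54, adjusted p = 0.000236). At the fourth, chr2:38072239-38073239, paclitaxel-resistant cells did not pass the test against control (-0.78, adjusted p = 0.250).

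At the opposite side of the gene the direction was reversed. The peak just outside the lower end of the span (chr2:38066269-38067269), which also lies in or within 1 kb of RMDN2, had 2.03 and 1.29 CPM in cisplatin-resistant, 8.74 and 10.5 CPM in paclitaxel-resistant and 2.72 and 2.58 CPM in dual-resistant libraries, against 2.08 and 2.83 CPM in control libraries. Only the paclitaxel-resistant libraries stood apart, and above all others. The log2 difference was 1.78 in that line (SE 0.34, adjusted p = 1.52e-05), and dual-resistant cells were lower than paclitaxel-resistant cells (-1.68, adjusted p = 4.93e-05). Of 5 further peaks within 10 kb, the number lower than control was 1 with cisplatin, 3 with paclitaxel and 1 with dual resistance. Over all tested peaks the shares called lower were 14.9%, 9.17% and 5.39%, and none of the 5 was higher. The furthest of these beyond the upper end (chr2:38081700-38082700) was low in every resistant line: 2.36 and 0.818 CPM in cisplatin-resistant, 0.728 and 1.24 CPM in paclitaxel-resistant and 1.98 and 3.44 CPM in dual-resistant libraries, against 8.06 and 9.52 CPM in control libraries. All 6 resistant libraries lay below both control libraries, with log2 differences of -2.25, -2.67 and -1.57 in the same order of lines; the last was lost without dual-resistant library 1 (-1.23) or control library 2 (-1.45).

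**Figure D2:**
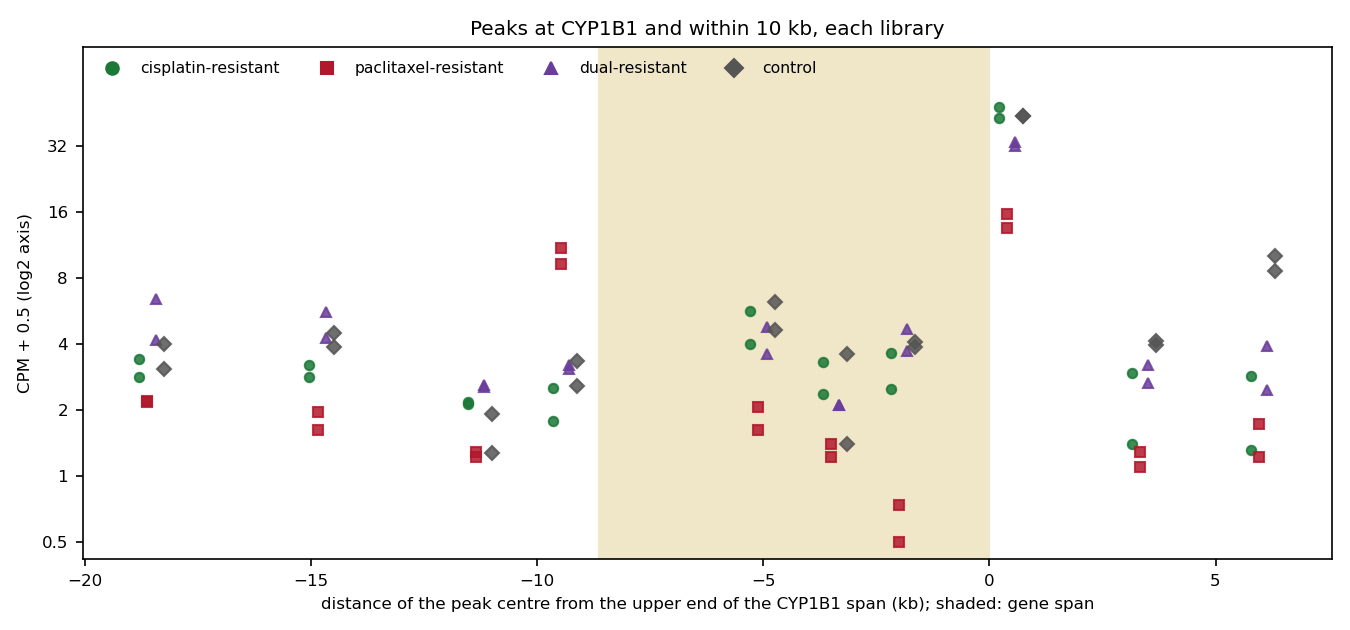
Signal of every library at the 5 CYP1B1 peaks and 5 further peaks within 10 kb; the horizontal axis is the distance of the peak centre from the upper end of the gene span in kb, the vertical axis is CPM + 0.5 on a log2 scale, and shading marks the span. Paclitaxel-resistant libraries (squares) lie lowest at the gene-end peak and highest at the peak outside the lower end.

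As a description of likeness, the log2 values of the CYP1B1 gene-end peak over the 8 libraries were correlated with 13005 start or gene-end peaks averaging at least 3 CPM. Pearson's r was highest for DUSP6 (0.997), a phosphatase of ERK kinases, then NRIP1 (0.994), a corepressor of nuclear receptors, PLOD2 (0.993), a collagen lysyl hydroxylase, TMSB15C (0.988) and SH3BP4 (0.984). The points share libraries, and 141 peaks had r above 0.9. The DUSP6 start peak had 49.1 and 52.7 CPM in cisplatin-resistant, 6.43 and 3.82 CPM in paclitaxel-resistant and 26.1 and 25.6 CPM in dual-resistant libraries, against 44.2 and 41.7 CPM in control libraries.

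CYP1A1, the classical AHR-induced hydrocarbon oxidase, was less accessible in cisplatin-resistant cells at both of its peaks. Its start peak (chr15:74725234-74726234) had 11.6 and 9.0 CPM in cisplatin-resistant, 15.8 and 14.6 CPM in paclitaxel-resistant and 10.9 and 11.8 CPM in dual-resistant libraries, against 16.6 and 22.7 CPM in control libraries. All 6 resistant libraries lay below both control libraries. The log2 difference was -0.89 in cisplatin-resistant (SE 0.18, adjusted p = 3.72e-05), -0.34 in paclitaxel-resistant (adjusted p = 0.207) and -0.75 in dual-resistant cells (SE 0.18, adjusted p = 0.00141); the last was lost without control library 2 (-0.53). The second peak, inside the span (chr15:74723791-74724791), had 7.65 and 6.66 CPM in cisplatin-resistant, 7.41 and 10.1 CPM in paclitaxel-resistant and 12.7 and 11.9 CPM in dual-resistant libraries, against 13.1 and 13.4 CPM in control libraries. Here the dual-resistant libraries stood close to control (-0.10, 95% interval -0.51 to 0.31), while cisplatin-resistant cells were lower (-0.85, adjusted p = 0.000538). Paclitaxel-resistant cells were lower as well (-0.59, adjusted p = 0.0356), but this call was lost under 7 of 18 settings, among them those without paclitaxel-resistant library 1 (-0.37), control library 1 (-0.60) or control library 2 (-0.57). The interaction term was 1.33 at this peak (adjusted p = 0.000157), so the dual-resistant value again lay above the added single-line differences.

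CYP1A2, the caffeine-oxidising liver enzyme next to CYP1A1, had 1 weak peak inside its span (chr15:74752342-74753342) and none over its start. It had 3.49 and 3.98 CPM in cisplatin-resistant, 1.21 and 0.899 CPM in paclitaxel-resistant and 1.85 and 1.5 CPM in dual-resistant libraries, against 2.08 and 2.19 CPM in control libraries. The groups did not overlap, yet no line passed the test against control (0.68 for cisplatin, adjusted p = 0.196; -0.77 for paclitaxel, adjusted p = 0.206; -0.28 for dual resistance, adjusted p = 0.734). Between the resistant lines the peak was lower in paclitaxel-resistant than in cisplatin-resistant cells (-1.45, adjusted p = 0.00218).

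Among the taxane-oxidising P450s, only CYP3A5 had a peak. Its start peak (chr7:99679427-99680427), which also lies in or within 1 kb of ZSCAN25, had 3.6 and 3.62 CPM in cisplatin-resistant, 1.46 and 1.57 CPM in paclitaxel-resistant and 2.23 and 1.83 CPM in dual-resistant libraries, against 1.56 and 0.901 CPM in control libraries. Both cisplatin-resistant libraries lay above all others, at 32 and 31 reads against 12 and 7 reads in control libraries. The log2 difference was 1.28 in cisplatin-resistant cells (SE 0.41, adjusted p = 0.00969), and the call was lost without cisplatin-resistant library 1 (1.28), cisplatin-resistant library 2 (1.27) or control library 2 (1.0). In paclitaxel-resistant cells the difference was 0.25 (95% interval -0.56 to 1.05) and in dual-resistant cells 0.57 (-0.24 to 1.38), neither past the test. CYP3A4 had 2 weak peaks between 1 and 10 kb from its span, neither called against control.

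The starts of CYP3A5, where a peak was found, and CYP3A4, where none was, are shown because these neighbouring genes share much of their start sequence. Neither holds GCGTG on either strand.
CYP3A5, chr7:99679947-99680246, minus strand: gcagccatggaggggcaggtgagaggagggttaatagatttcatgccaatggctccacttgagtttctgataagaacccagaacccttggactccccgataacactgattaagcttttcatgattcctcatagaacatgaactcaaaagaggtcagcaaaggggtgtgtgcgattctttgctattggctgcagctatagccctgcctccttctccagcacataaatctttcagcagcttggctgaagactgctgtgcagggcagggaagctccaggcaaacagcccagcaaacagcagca
CYP3A4, chr7:99784135-99784434, minus strand: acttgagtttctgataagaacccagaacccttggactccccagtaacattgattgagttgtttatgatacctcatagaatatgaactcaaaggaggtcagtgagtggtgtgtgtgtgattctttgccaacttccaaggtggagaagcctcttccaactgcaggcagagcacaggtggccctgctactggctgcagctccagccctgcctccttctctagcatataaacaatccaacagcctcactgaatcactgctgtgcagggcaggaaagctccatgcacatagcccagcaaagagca
In a local alignment, 110 of 125 aligned bases were identical (88%). CYP3A4 has 1 match to the AP-1 motif TGANTCA, read as TGAATCA from position -6, a motif held by 7.71% of all start regions. The GC content was 50% at CYP3A5 and 49.3% at CYP3A4, and only 34% at the CYP2C8 start, which lay under no peak.

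AHR itself showed opposite values in the single-resistant lines. Its start peak (chr7:17298241-17299241), which also lies in or within 1 kb of LOC101927609, had 7.77 and 9.94 CPM in cisplatin-resistant, 1.70 and 0.674 CPM in paclitaxel-resistant and 1.24 and 0.860 CPM in dual-resistant libraries, against 4.16 and 5.66 CPM in control libraries. The cisplatin-resistant libraries lay above control, and the 4 libraries of the other lines lay below it, at 6 to 14 reads each. The log2 difference from control was -1.74 in paclitaxel-resistant (SE 0.36, adjusted p = 9.38e-05) and -1.80 in dual-resistant cells (SE 0.36, adjusted p = 6.71e-05). Cisplatin-resistant cells had a difference of 0.79 (95% interval 0.08 to 1.51), which missed the call (adjusted p = 0.0802), while 4 of 18 settings made it. Dual-resistant cells were lower than cisplatin-resistant cells (-2.6, adjusted p = 2.70e-09), and their difference from paclitaxel-resistant cells was -0.06 (95% interval -0.78 to 0.65). The median of 265 tested peaks in the fixed 5 Mb interval that holds AHR was 0.10 for cisplatin, -0.08 for paclitaxel and 0.26 for dual resistance, relative to control.

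The second AHR peak (chr7:17304863-17305863), inside the span, had 4.84 and 1.64 CPM in cisplatin-resistant, 0.486 and 0.562 CPM in paclitaxel-resistant and 0.742 and 0.537 CPM in dual-resistant libraries, against 0.260 and 0.901 CPM in control libraries. The cisplatin-resistant libraries lay above the other 6 but differed widely from each other. Their log2 difference was 1.71 (adjusted p = 0.00378), lost without cisplatin-resistant library 1 (1.05) or control library 1 (1.27).

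ARNT, the obligate partner of AHR, had the strongest start peak of the set (chr1:150876296-150877296): 66.9 and 59.9 CPM in cisplatin-resistant, 91.8 and 85.2 CPM in paclitaxel-resistant and 71.0 and 74.5 CPM in dual-resistant libraries, against 69.0 and 81.1 CPM in control libraries. Paclitaxel-resistant libraries were above control and cisplatin-resistant libraries below it, while dual-resistant libraries fell within the control range. The small difference of -0.24 in cisplatin-resistant cells (SE 0.09, adjusted p = 0.0280) was lost under 6 of 18 settings, among them median-ratio scaling (-0.13) and those without cisplatin-resistant library 2 (-0.16) or control library 2 (-0.12), and it turned to 0.10 with the regional median subtracted. In paclitaxel-resistant cells the difference was 0.24 (adjusted p = 0.0504), and 11 of 18 settings called it. Between these lines it was 0.48 for paclitaxel-resistant minus cisplatin-resistant (adjusted p = 4.08e-06). A weak peak beyond the lower end of the span (chr1:150807896-150808896), which also lies in or within 1 kb of CTSK, had 0.675 and 2.10 CPM in cisplatin-resistant, 4.13 and 2.58 CPM in paclitaxel-resistant and 3.21 and 3.12 CPM in dual-resistant libraries, against 1.30 and 0.772 CPM in control libraries. It was higher in paclitaxel-resistant (1.32, adjusted p = 0.0163) and dual-resistant cells (1.28, adjusted p = 0.0253). Without control library 2 both calls were lost (1.07 and 1.03), as they were without paclitaxel-resistant library 1 for the first (1.03) and without either dual-resistant library for the second (1.26 and 1.30). The other 6 ARNT peaks, with means of 1.01 to 5.35 CPM, were not called against control in any line.

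AHRR encodes the repressor that competes with AHR for ARNT. Every AHRR peak also lies in or within 1 kb of the read-through gene PDCD6-AHRR, so the peaks cannot be given to one of them alone. The AHRR start peak (chr5:320989-321989) had 5.63 and 10.6 CPM in cisplatin-resistant, 7.65 and 8.09 CPM in paclitaxel-resistant and 7.67 and 6.02 CPM in dual-resistant libraries, against 13.5 and 10.2 CPM in control libraries. Only cisplatin-resistant library 2 reached the control range. The peak was lower in dual-resistant cells (-0.75, SE 0.23, adjusted p = 0.0175), a call lost without dual-resistant library 2 (-0.58) or control library 1 (-0.55). In cisplatin-resistant cells the difference of -0.57 (adjusted p = 0.0485) was lost under 12 of 18 settings. Among these were all that left out 1 library, other than cisplatin-resistant library 2 or control library 2, with values of -0.13 without cisplatin-resistant library 1, -0.37 without control library 1 and -0.57 without any library of the other lines.

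Of the 15 AHRR peaks, 2 were called higher and 1 lower than control with cisplatin, 2 lower with paclitaxel and 1 lower with dual resistance. These shares of 20%, 13.3% and 6.67% were below the 33.2%, 16.4% and 13.5% called over all tested peaks. The peak at chr5:393996-394996 had 5.40 and 6.90 CPM in cisplatin-resistant, 4.25 and 2.58 CPM in paclitaxel-resistant and 6.43 and 5.05 CPM in dual-resistant libraries, against 7.41 and 6.56 CPM in control libraries. Both paclitaxel-resistant libraries were the lowest (-0.97, adjusted p = 0.00632), with the call lost without paclitaxel-resistant library 2 (-0.65) or control library 1 (-0.88). At chr5:372909-373909 the cisplatin-resistant libraries, with 3.04 and 3.51 CPM, lay above 0.728 and 0.787 CPM in paclitaxel-resistant and 1.36 and 1.07 CPM in dual-resistant libraries, and above 0.650 and 0.644 CPM in control libraries. That rise of 1.72 in cisplatin-resistant cells (SE 0.46, adjusted p = 0.00160) kept its call under all 18 alternative settings. Chosen after their values were seen, chr5:337319-338319 was lower in paclitaxel-resistant cells (-0.90, adjusted p = 0.00674) and chr5:423717-424717 higher in cisplatin-resistant cells (1.53, adjusted p = 0.00797), and each lost its call without one or the other of these libraries: paclitaxel-resistant library 2 (-0.78) or control library 2 (-0.80) for the first, cisplatin-resistant library 1 (1.24) or control library 2 (0.92) for the second. The other 10 AHRR peaks, with means of 1.60 to 6.94 CPM, were not called against control in any line.

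TIPARP, a mono-ADP-ribosyltransferase that AHR induces and that limits AHR activity, had peaks over all 3 of its annotated starts, all in or within 1 kb of the antisense gene TIPARP-AS1. The strongest (chr3:156673811-156674811) had 63.7 and 55.3 CPM in cisplatin-resistant, 71.8 and 73.0 CPM in paclitaxel-resistant and 60.7 and 62.2 CPM in dual-resistant libraries, against 65.1 and 61.5 CPM in control libraries. Paclitaxel-resistant libraries were the highest, and no line passed the test against control (-0.09 for cisplatin, 0.19 for paclitaxel and -0.04 for dual resistance). The paclitaxel difference was called with median-ratio scaling (0.36) and with edgeR on the recovered reads (0.35). The peak over the second start (chr3:156674851-156675851) had 8.44 and 9.35 CPM in cisplatin-resistant, 15.9 and 16.2 CPM in paclitaxel-resistant and 10.5 and 12.1 CPM in dual-resistant libraries, against 14.6 and 13.4 CPM in control libraries. It was lower in cisplatin-resistant cells, whose libraries lay below all others (-0.62, SE 0.19, adjusted p = 0.00564), but not without cisplatin-resistant library 1 (-0.55) or control library 1 (-0.56). The weak peak over the third start (chr3:156675872-156676872) was not called against control in any line, but it was lower in dual-resistant than in cisplatin-resistant cells (-1.52). A peak deep in the gene (chr3:156691234-156692234), named after its values were seen, held 20 and 12 reads in cisplatin-resistant libraries and 4 and 2 reads in control libraries (1.38, adjusted p = 0.0252), a call lost under 4 of 17 settings: without cisplatin-resistant library 1 (1.11) or control library 2 (1.17), with a pseudocount of 0.1 (2.0) and with edgeR (2.27).

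**Figure D3:**
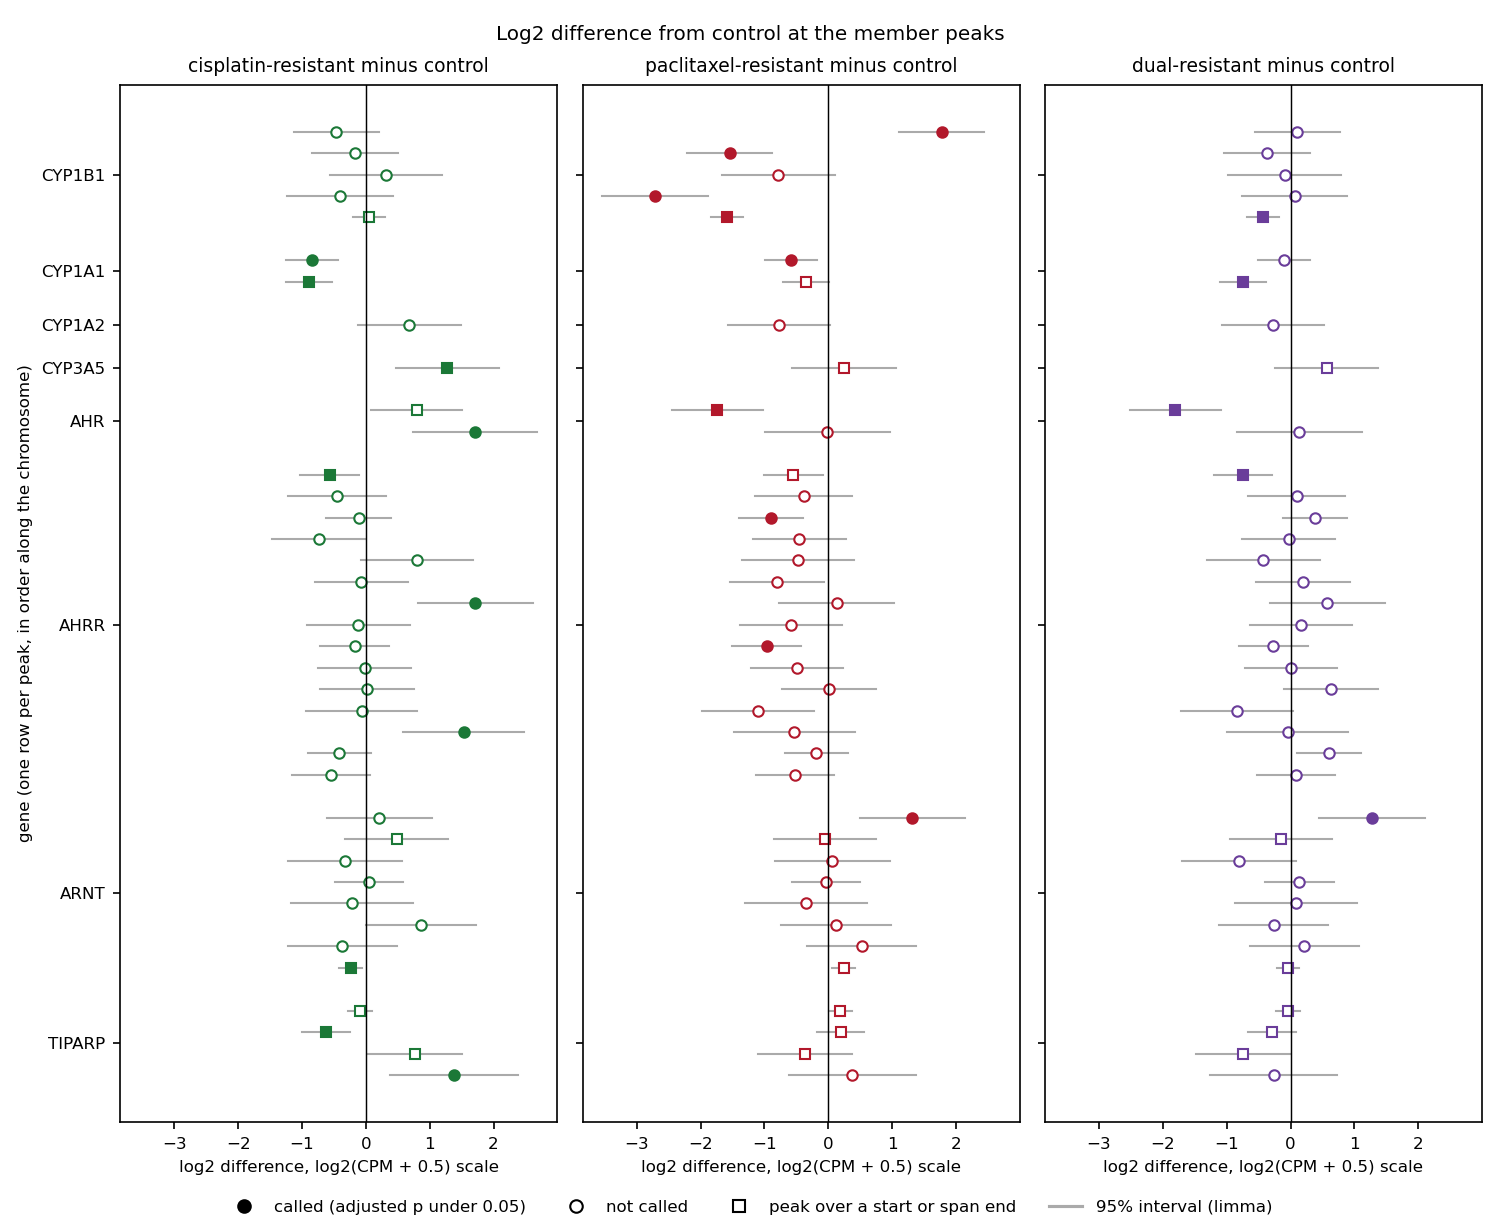
Log2 difference from control of each of the 38 member peaks on the log2(CPM + 0.5) scale, one panel per resistant line, with 95% limma intervals as grey lines; filled symbols passed the test and squares lie over an annotated start or a span end. The filled symbol furthest from 0 is AHRR chr5:372909-373909 (1.72) in the cisplatin panel, CYP1B1 chr2:38073735-38074735 (-2.71) in the paclitaxel panel and the AHR start (-1.80) in the dual panel.

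Counted over the set, 5 of the 38 peaks were higher and 5 lower than control in cisplatin-resistant cells, or 26.3%, against a background of 33.2% of all tested peaks (18.3% higher, 14.9% lower). In paclitaxel-resistant cells 2 were higher and 7 lower, or 23.7%, against 16.4% (7.26% higher, 9.17% lower). In dual-resistant cells 1 was higher and 4 lower, or 13.2%, against 13.5% (8.11% higher, 5.39% lower). The shares were therefore near or below the background in cisplatin- and dual-resistant cells, and somewhat above it in paclitaxel-resistant cells, where 3 of the 7 lower peaks were in CYP1B1. The median log2 difference of the members was -0.08 for cisplatin, -0.37 for paclitaxel and -0.04 for dual resistance, beside -0.09, -0.14 and 0.08 over all tested peaks. Median-ratio scaling moved the paclitaxel median of all peaks from -0.14 to -0.00 and turned the balance of its calls, with 16298 higher and 10261 lower peaks against 11525 and 14557 as deposited; for cisplatin the calls became 31891 and 17921 against 29093 and 23664, and for dual resistance 10721 and 10732 against 12864 and 8561. All 3 comparisons share the control libraries.

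Between resistant lines, 6 member peaks were higher and 14 lower in paclitaxel-resistant than in cisplatin-resistant cells, or 52.6%, against a background of 38.7% (15.3% higher, 23.4% lower). Of the 14 lower peaks, 5 were in AHRR, 4 in CYP1B1 and 2 in AHR. For dual-resistant against cisplatin-resistant cells the counts were 3 higher and 10 lower (background 41.8%; 21.9% higher, 19.9% lower), and for dual-resistant against paclitaxel-resistant cells 6 higher and 3 lower (background 22.4%; 14.9% higher, 7.44% lower). The interaction term was called at 9 member peaks, or 23.7%, above 0 at 7 and below it at 2, and 4 of the 9 were in CYP1B1. Over all tested peaks 34.3% were called (19.3% above 0, 15% below). The balance of these calls depended on scaling: 30672 above 0 and 23753 below as deposited, 26056 and 24854 with quantile scaling, and 18604 and 32559 with median-ratio scaling. For dual-resistant against paclitaxel-resistant cells, median-ratio scaling gave 14260 higher and 19592 lower peaks, against 23681 and 11803 as deposited.

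Summing CPM over the peaks of each gene gave 1 level per gene, fitted over 17560 protein-coding genes. The CYP1B1 sum was 55.8 ± 2.64 CPM in cisplatin-resistant, 26.0 ± 0.677 CPM in paclitaxel-resistant and 43.7 ± 2.34 CPM in dual-resistant cells, against 56.1 ± 2.03 CPM in control cells (SD, n = 2 each). It was lower in paclitaxel-resistant (-1.10, adjusted p = 8.49e-14) and dual-resistant cells (-0.36, adjusted p = 0.00649), the dual-resistant call being lost without dual-resistant library 1 (-0.30) or control library 1 (-0.32). The AHR sum was 12.1 ± 0.728 CPM in cisplatin-resistant, 1.71 ± 0.671 CPM in paclitaxel-resistant and 1.69 ± 0.411 CPM in dual-resistant cells, against 5.49 ± 1.52 CPM in control cells. On this measure AHR was higher than control in cisplatin-resistant cells (1.09, adjusted p = 0.00324), a call lost without control library 1 (0.83), and lower in paclitaxel-resistant (-1.45, adjusted p = 0.000195) and dual-resistant cells (-1.44, adjusted p = 0.000351). The AHRR sum was lower in paclitaxel-resistant cells (38.4 ± 1.19 CPM, against 60.0 ± 0.689 CPM in control cells; -0.64, adjusted p = 1.51e-07), and the ARNT sum was higher there (106 ± 4.86 CPM, against 89.2 ± 6.88 CPM in control cells; 0.24, adjusted p = 0.00904). The ARNT call was lost without paclitaxel-resistant library 1 (0.20) or control library 1 (0.16). The CYP1A1 sum was 17.5 ± 2.53 CPM with cisplatin, 24.0 ± 1.08 CPM with paclitaxel and 23.7 ± 0.0952 CPM with dual resistance, against 32.9 ± 4.44 CPM in control cells. It was lower in cisplatin-resistant cells (-0.90, adjusted p = 4.69e-07) and, less firmly, in paclitaxel-resistant (-0.44, adjusted p = 0.0121) and dual-resistant cells (-0.46, adjusted p = 0.0125), where leaving out control library 2 (-0.31 and -0.32), paclitaxel-resistant library 1 (-0.40, for that line) or a dual-resistant library (-0.46 each, for that line) ended the call. No TIPARP sum was called against control; the paclitaxel difference of 0.18 (adjusted p = 0.0696) was called with median-ratio scaling (0.35), edgeR (0.22) and a fit of only the groups compared (0.18). Over all genes, sums were called for 54.7% with cisplatin, 35.4% with paclitaxel and 28.3% with dual resistance. As deposited, these were 3808 higher and 5792 lower with cisplatin, 2769 and 3450 with paclitaxel, and 2036 and 2929 with dual resistance. The balance depended on scaling: with median-ratio scaling they were 4752 and 3732, 5572 and 1895, and 1539 and 4745 in the same order.

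**Figure D4:**
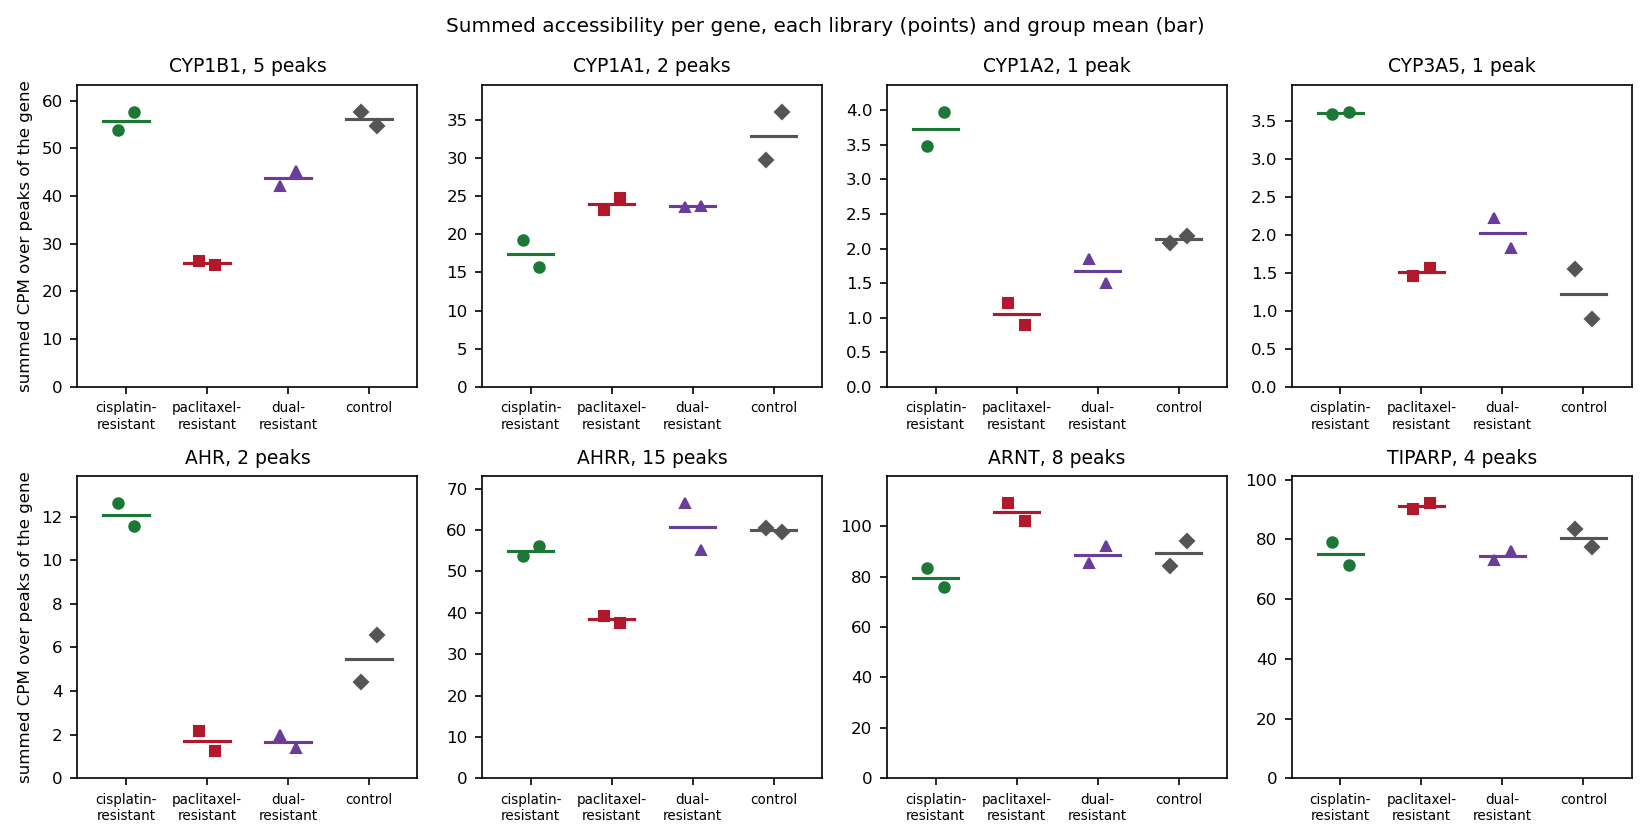
Summed CPM over the peaks of each gene in every library (points) with group means (bars); each vertical axis starts at 0. The paclitaxel-resistant libraries are lowest at CYP1B1 and AHRR and highest at ARNT and TIPARP, and the AHR sum is highest in the cisplatin-resistant libraries.

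Among 22 AHR partners and other AHR targets, 16 had a start or gene-end peak. Of these, 4 were higher and 5 lower with cisplatin, 2 higher and 1 lower with paclitaxel, and 2 higher and 2 lower with dual resistance; over all such peaks 39.5% were called for cisplatin (11% higher, 28.4% lower), 22.5% for paclitaxel (12.7% higher, 9.83% lower) and 19.7% for dual resistance (4.78% higher, 14.9% lower). The list medians were -0.07, 0.06 and -0.13, beside -0.19, 0.01 and -0.14 over all genes. SCIN, an actin-severing protein gene known as a dioxin-responsive gene in mouse, was measured at a gene-end peak, as was IDO1. The SCIN peak had 11.9 and 8.65 CPM in cisplatin-resistant, 1.21 and 0.787 CPM in paclitaxel-resistant and 1.48 and 2.47 CPM in dual-resistant libraries, against 0.650 and 1.16 CPM in control libraries (2.95 in cisplatin-resistant cells, adjusted p = 1.08e-09). IDO1, whose enzyme starts the breakdown of tryptophan to kynurenine, an AHR ligand, rose by 1.92 with paclitaxel and by 1.86 with dual resistance (adjusted p = 0.000852 and 0.00168), to 2.73 ± 0.429 and 2.59 ± 0.0122 CPM, against 0.389 ± 0.369 CPM in control cells; both calls were lost without control library 2 (1.48 and 1.43). Named after their values were seen, and not rerun under other settings, HSP90AB1, a chaperone gene of the AHR complex, fell in cisplatin-resistant (-0.45, adjusted p = 3.12e-05) and rose in paclitaxel-resistant cells (0.53, adjusted p = 2.09e-06), and NQO1 and NFE2L2, of the oxidative stress response, fell in dual-resistant cells (-0.33 and -0.48, adjusted p = 0.00561 and 0.0036).

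Among 18 taxane-handling genes 8 had such a peak, with 1 higher and 2 lower in cisplatin-resistant cells and 1 higher and 1 lower in each of the other lines. Over all such peaks the shares called were 39.5% for cisplatin, 22.5% for paclitaxel and 19.7% for dual resistance. The list medians were -0.09 for cisplatin, -0.04 for paclitaxel and -0.13 for dual resistance, beside -0.19, 0.01 and -0.14 over all genes. CYB5A, the cytochrome b5 that donates electrons to P450 enzymes, had 2.36 and 2.92 CPM in cisplatin-resistant, 20.8 and 20.7 CPM in paclitaxel-resistant and 19.5 and 21.1 CPM in dual-resistant libraries, against 0.520 and 0.901 CPM in control libraries. Every resistant library lay above both control libraries, and the log2 differences were 1.39 for cisplatin, 4.15 for paclitaxel and 4.12 for dual resistance (adjusted p = 7.19e-06, 7.69e-27 and 2.64e-26). POR, the P450 reductase gene, likewise named after its values were seen, fell in cisplatin-resistant (-0.47, adjusted p = 0.000571) and dual-resistant cells (-0.34, adjusted p = 0.0304). ONECUT1, a liver transcription factor gene, fell in cisplatin-resistant (-1.68, adjusted p = 5.16e-10) and paclitaxel-resistant cells (-1.29, adjusted p = 1.39e-06).

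Of 18 other P450 genes 14 had such a peak, with 3 higher and 5 lower with cisplatin, 2 higher and 3 lower with paclitaxel, and 1 higher and 1 lower with dual resistance. Over all such peaks the shares called were 39.5%, 22.5% and 19.7% in the same order. The list medians were -0.21, 0.03 and -0.17, beside -0.19, 0.01 and -0.14 over all genes. CYP4X1, an orphan P450, fell in cisplatin-resistant (-1.71) and paclitaxel-resistant cells (-1.86), in that line not without paclitaxel-resistant library 2 (-1.08). CYP2S1, an epithelial P450 that AHR can induce, rose in paclitaxel-resistant (1.39) and dual-resistant cells (1.23), the second not without dual-resistant library 2 (1.11) or control library 2 (1.0). The vitamin D 24-hydroxylase gene CYP24A1 fell in paclitaxel-resistant cells (-1.63), and CYP2W1 and the vitamin D 1-hydroxylase gene CYP27B1 rose in cisplatin-resistant cells (1.35 and 1.36), each at a gene-end peak. CYP2J2 rose in cisplatin-resistant (1.27) and fell in dual-resistant cells (-1.27), and CYP26B1, a retinoic acid oxidase gene, fell in paclitaxel-resistant cells (-1.15); these last 3 calls were lost under 5 of 18, 8 of 18 and 9 of 17 settings.

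**Figure D5:**
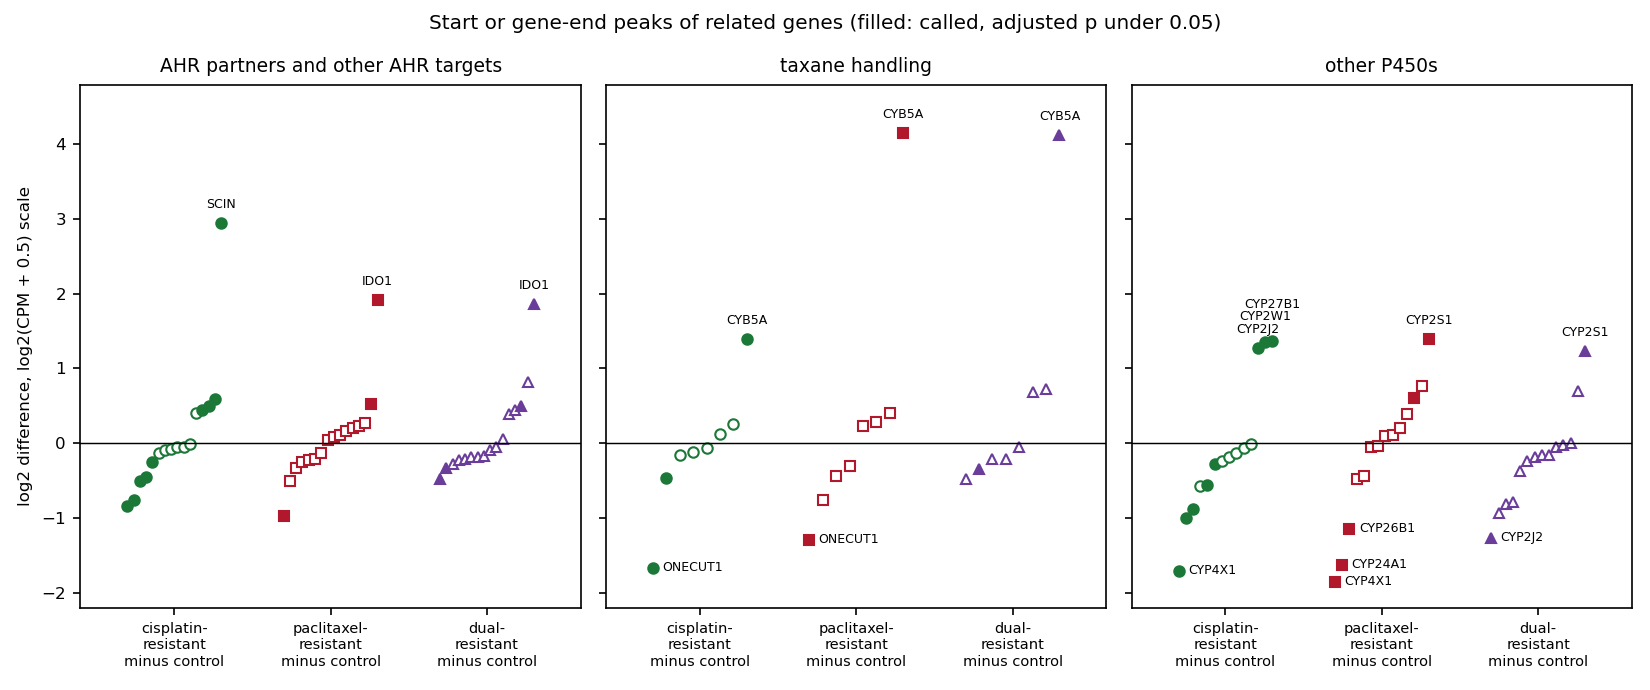
Log2 difference from control of the start or gene-end peak of each measured gene in 3 lists of related genes, on the log2(CPM + 0.5) scale; each point is 1 gene in 1 resistant line and filled points passed the test. CYB5A stands highest, at 4.15 and 4.12 in paclitaxel- and dual-resistant cells.

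Markers of the labelled tissue were measured for 6 of 7 ovarian carcinoma and epithelial genes, whose summed level was 19.3 to 31.3 CPM per library and lowest in the paclitaxel-resistant libraries; MUC16 had no start or gene-end peak. Of these 6, PAX8 and KRT8 were higher and ESR1 lower in cisplatin-resistant, WT1 and EPCAM lower in paclitaxel-resistant and ESR1 lower in dual-resistant cells. Over all start or gene-end peaks the shares called were 39.5% for cisplatin, 22.5% for paclitaxel and 19.7% for dual resistance. Leaving out 1 library ended the call of PAX8 (1.33 without control library 1), KRT8 (1.22 without cisplatin-resistant library 1, 0.99 without control library 1) and ESR1 (-1.36 and -1.30 without the same libraries) with cisplatin, of WT1 with paclitaxel (-0.99 without paclitaxel-resistant library 2, -1.06 without control library 1) and of ESR1 with dual resistance (-1.01 without dual-resistant library 1, -1.25 and -1.54 without control library 1 or 2), where a pseudocount of 0.1 ended it as well (-1.78). Hepatocyte markers were measured for 3 of 6 genes (19.7 to 30.0 CPM summed per library; ALB, TTR and FGB without a peak), haematopoietic markers for 4 of 5 (23.3 to 38.9 CPM; PTPRC without a peak) and endothelial markers for 1 of 4, KDR, which fell in every resistant line. In cisplatin-resistant cells the hepatocyte marker SERPINA1 and the haematopoietic marker CD14 were higher, with calls lost under 4 of 18 and 5 of 17 settings. The haematopoietic marker SPI1 was lower in cisplatin-resistant and higher in paclitaxel-resistant cells. The 5 fibroblast markers summed to 65.7 and 68.8 CPM in cisplatin-resistant, 65.7 and 67.4 CPM in paclitaxel-resistant and 44.3 and 45.0 CPM in dual-resistant libraries, against 34.8 and 32.2 CPM in control libraries, but the 5 did not move together. With cisplatin, PDGFRB (2.23) and COL1A1 (0.79) were higher and COL1A2 lower (-0.78). With paclitaxel, LUM and DCN were higher at their gene-end peaks (3.78 and 4.03) and the other 3 were not called, with a list median of -0.08. With dual resistance only COL1A1 was higher (0.61). Their part in the differences at the members was not tested.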

How the data were processed

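Open chromatin was measured by ATAC-seq, with Tn5 libraries prepared by a sequencing provider according to the labels' protocols. The deposited matrix holds CPM values for 159451 peaks on hg38; Bowtie2, Picard and MACS2 are named, without versions, in the submitters' processing notes, and how the authors merged peaks, shifted Tn5 ends or treated multi-mapping reads is not stated there. Each CPM column is the authors' scaling of whole reads in peaks: dividing by the value of 1 read gave whole numbers for 100% of values (tolerance 0.01 read), and totals of 7693492 to 9304798 reads in peaks per library. One read equals 0.107 to 0.130 CPM; where no read was seen, up to 3 reads (0.322 to 0.390 CPM) remain possible, for counting error only. Libraries of a group differed by more than sampling noise (chi-square per degree of freedom 1.88 to 2.22), so none was a duplicate of another.

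The 158698 peaks that reached 1 CPM in 2 or more libraries were tested on log2(CPM + 0.5) with limma 3.58.1 (R 4.3.3; trended variance, two-sided) over all 8 libraries and 4 groups, with 6 pairwise contrasts and 1 interaction term. For peaks, the fit had 4 residual degrees of freedom and 98.5 prior ones, which come from other peaks of similar level. The spread behind a p-value is therefore mostly that of other peaks, and all 4 groups share it. P-values were Benjamini-Hochberg adjusted over all tested peaks and called under 0.05. Differences are on that log2 scale, which understates changes of weak peaks. Summed CPM per gene was fitted in the same way over 17560 protein-coding genes. A gene's start peak covers its RefSeq start. Otherwise the strongest peak within 1 kb of either end of the span was taken and called its gene-end peak. A gene-end peak can therefore lie at either end of a gene.

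Each gene's start or gene-end peak, its strongest peak and, for each comparison with control, its called peak of smallest p without overlap of the groups were described in full; the 5 genes most like CYP1B1 were taken by Pearson's r; and the called genes furthest from control were named in each list. Members and lists were chosen with earlier results of these data known. The scripts were tested on simulated data. The alternatives were other pseudocounts, filters, scalings, regional medians, spans, a replicate block, a fit of only the groups compared, edgeR 4.0.16 on the recovered reads, and leaving out each library. Regional medians were taken in fixed 5 Mb intervals of each chromosome, so a gene can lie near the edge of its interval.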

Additional observations from a re-analysis of the deposited data

Results flagged for a closer look

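At 9 member peaks the dual-resistant value departed from what adding both single-line differences to control would give, by the limma interaction term (Benjamini-Hochberg adjusted over all tested peaks). This was 23.7% of the member peaks, below the 34.3% called over all tested peaks. The term was above 0 at 7 of them. Over all tested peaks the term was called above 0 at 30672 and below at 23753 as deposited, but 18604 and 32559 with median-ratio scaling. In CYP1B1 it was 1.11 at the gene-end peak (chr2:38076127-38077127), 1.35 at chr2:38070633-38071633 and 3.18 at chr2:38073735-38074735, and at all 3 the dual-resistant libraries lay above the paclitaxel-resistant libraries. At the gene-end peak they were also below the control libraries. It was -1.21 at chr2:38066269-38067269, where the paclitaxel-resistant libraries alone were high. In CYP1A1 it was 1.33 at the peak inside the span (chr15:74723791-74724791). In AHRR it was 1.39 at chr5:337319-338319, 1.21 at chr5:430524-431524 and 1.16 at chr5:436122-437122. At chr5:430524-431524 the dual-resistant libraries, with 10.9 and 9.78 CPM, lay above 5.85 and 3.98 CPM in cisplatin-resistant, 4.74 and 6.97 CPM in paclitaxel-resistant and 5.85 and 7.47 CPM in control libraries. In TIPARP it was -2.02 at chr3:156691234-156692234, which rests on 2 reads in each dual-resistant library.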

How the results depend on the processing

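The paclitaxel difference at the CYP1B1 gene end lay between -1.69 and -1.42 over 18 alternatives and kept its call in all of them. The dual-resistant difference there was -0.30 with quantile scaling, without a call, and lay between -0.46 and -0.40 when 1 library was left out. With the regional median subtracted, the cisplatin difference reversed to -0.32 at the CYP1B1 gene end and to 0.10 at the ARNT start, and the TIPARP start difference between dual-resistant and cisplatin-resistant cells reversed to -0.27. Quantile scaling reversed the ARNT start difference between dual-resistant and paclitaxel-resistant cells to 0.070, and the mean log2 difference over peaks in place of the sum reversed TIPARP between paclitaxel-resistant and cisplatin-resistant cells to -0.26. The cause was not tested.

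Settings that change the span or the filter also change how many peaks are counted: 38 as reported, 26 with a 3 CPM minimum, 36 with no extension of the span and 56 with 10 kb. In cisplatin-resistant cells 2 were higher with the 3 CPM minimum and 1 to 5 with 1 library left out, while 3 were lower with median-ratio scaling, 3 with edgeR, 8 with spans extended 10 kb (14.3% of peaks, against 13.2%) and 3 to 4 with 1 library left out. In paclitaxel-resistant cells 4 were higher with median-ratio scaling, 4 with edgeR, 0 with no extension of the span and 1 to 3 with 1 library left out, and 11 were lower with 10 kb (19.6% of peaks, against 18.4%). In dual-resistant cells 0 were higher with a pseudocount of 0.1, with quantile scaling or with no extension, and 0 to 1 with 1 library left out; 2 to 4 were lower with 1 library left out.

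Replicate numbers did not pair the libraries: same-numbered deviations correlated between -0.000587 and 0.00332. With the replicate block the counts were 5 and 5, 2 and 7, and 1 and 4 higher and lower for cisplatin, paclitaxel and dual resistance, and the CYP1B1 differences 0.05, -1.59 and -0.43. Over 43 peaks and 7 comparisons, 5013 of 5284 recomputed values were counted as unchanged. Of the others, 200 lost a call, 67 gained one and 4 were counted as reversed. Differences that were never called could change sign and still count as unchanged. At the strongest TIPARP start peak, for example, the cisplatin difference ranged from -0.19 to 0.05. The total also includes fits without a library from outside the comparison, so it does not measure how firm the called differences are. Peaks of a few reads are limited by depth.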
